A study of Homo sapiens with 26 samples.

Results

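The 9 genes described here write, oxidise, read or excise methylated cytosine: the oxygenases TET1, TET2 and TET3, the DNA methyltransferases DNMT1, DNMT3A and DNMT3B, the glycosylases TDG and MBD4, and the methyl-CpG reader MBD2. They were chosen by name, and each matched 1 Ensembl gene ID among the 57773 genes of the count table. RNA sequencing was done on TF-1, an established human erythroleukemia line whose growth depends on cytokines such as GM-CSF. The study set TET2 knockout (KO) against TET2 wild-type (WT) cells and 5-azacytidine (Aza), a cytidine analogue that is incorporated into nucleic acids and traps DNA methyltransferases, against its solvent DMSO.

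The KO groups are clones F4 and A12, labelled TET2 -/-, and the WT groups are clones A7 and C4. Every clone derives from the same line, so a genotype is represented by 2 clones. Cells received 200 nM Aza, or DMSO, on 3 consecutive days, and RNA was taken from untreated cells at the start, 72 h after the first dose and again at 264 h. In KO, 2 libraries passed quality control for each of before treatment, Aza 72 h and Aza 264 h, 3 for DMSO 72 h and 4 for DMSO 264 h. A further 2 KO libraries, from batch 2, carried both a pre-treatment and a DMSO label. In the model they formed a group of their own, which holds no batch 1 library. They therefore inform the clone term and the spread, but not the batch term. That term rests on the KO libraries in DMSO at 72 h and 264 h. WT had 2 libraries in each of its 5 conditions, all from batch 1. The F4 library of batch 1 in DMSO at 72 h is labelled as failing quality control and was set aside, so F4 at 72 h has its DMSO value from batch 2 alone.

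Methylation of cytosine in CpG pairs is copied to the new strand after replication by DNMT1 and laid down on unmethylated DNA by DNMT3A and DNMT3B. TET enzymes oxidise 5-methylcytosine (5mC) stepwise, TDG removes the most oxidised forms from the DNA, MBD4 removes thymine and uracil left by deamination at CpG sites, and MBD2 binds methylated CpG and recruits repressors. In blood cells, TET2 and DNMT3A are among the genes most often mutated in clonal haematopoiesis and myeloid leukaemia, and Aza is used to treat such disease.

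The azacytidine contrasts described further on called 3 genes in the same direction in both genotypes at 72 h, DNMT3B and MBD4 higher and TET1 lower. For MBD4 and TET1, the nearest start listed by RefSeq lay within 500 bases of the gene start of GENCODE release 29. Their promoters, 250 bases before to 50 bases after the RefSeq start, are shown because CpG pairs are the substrate of the proteins described here. They are printed 5′ to 3′ on the gene's strand from the RefSeq table of GRCh38.p14, with each CG pair in capitals. The MBD4 promoter is chr3:129439899-129440198 on the minus strand, and the TET1 promoter is chr10:68560087-68560386 on the plus strand.
MBD4: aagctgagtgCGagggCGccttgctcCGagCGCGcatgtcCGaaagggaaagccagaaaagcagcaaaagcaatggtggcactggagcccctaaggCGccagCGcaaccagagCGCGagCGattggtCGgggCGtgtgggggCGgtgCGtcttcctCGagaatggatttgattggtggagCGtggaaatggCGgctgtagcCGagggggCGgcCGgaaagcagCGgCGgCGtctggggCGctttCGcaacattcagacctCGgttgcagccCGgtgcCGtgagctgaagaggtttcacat
TET1: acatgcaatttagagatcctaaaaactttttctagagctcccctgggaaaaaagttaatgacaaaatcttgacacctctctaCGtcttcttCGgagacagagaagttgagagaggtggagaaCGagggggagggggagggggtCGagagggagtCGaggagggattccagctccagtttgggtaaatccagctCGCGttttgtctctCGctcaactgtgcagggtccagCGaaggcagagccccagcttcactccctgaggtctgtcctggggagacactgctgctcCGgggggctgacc
The MBD4 window held 29 CG pairs and the TET1 window 10. The CG motif reads the same on both strands, and the median over 35116 promoters of this length was 14. At least 29 pairs were found in 24.2% of those promoters, and at least 10 in 56.4%. These are letters of the reference genome, and DNA methylation was not analysed here.

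Total counts ran from 24992192 to 40187322 in the 25 libraries, with a median of 27477937. Of 10 genes typical of erythroid and progenitor cells, 9 exceeded 1 count per 1000000 counts (CPM) in every library and CSF2RA was at 0 in all of them. CSF2RA encodes a chain of the GM-CSF receptor, and its partner CSF2RB was at 201.5 to 399.8 CPM. Whether reads of CSF2RA were lost in mapping or counting was not tested, so its 0 does not show that the transcript was absent. Among markers of other cell types, ALB of liver reached 6.61 CPM, CD3E of T cells 0.224 CPM and COL1A2 of stroma 0.0715 CPM, and the epithelial keratins KRT5 and KRT14 were at 0 in every library. The KO vehicle libraries of batch 2 had lower CPM than their batch 1 counterparts for 7 of the 9 genes in all 3 pairs of the same clone and time. For TET2 this difference was -0.34 to -0.23 in log2 CPM. The model therefore carries a batch term. Group means of KO in DMSO hold libraries of both batches and are not adjusted for it, so the fitted differences are the comparisons.

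All 9 genes were measured in every library, from 272 counts for TET1 in its lowest library to 23902 for DNMT1 in its highest, and all passed the filter on low counts. Scaled by exon length, in CPM per kb, DNMT1 was highest, with a median of 50.8 (range 44.2 to 59.2 over 25 libraries). TDG followed with a median of 24.0 CPM per kb, DNMT3B with 18.1, MBD4 with 13.6, MBD2 with 10.2 and TET3 with 5.94. DNMT3A had a median of 2.82 CPM per kb, TET2 of 1.80 and TET1 of 1.77.

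The order of these levels was stable between most neighbours. DNMT1 lay above TDG, MBD2 above TET3 and TET3 above DNMT3A in all 25 libraries, with no overlap of their ranges. TDG exceeded DNMT3B in 23 of 25 libraries, DNMT3B exceeded MBD4 in 25, and DNMT3A exceeded TET2 in 24. TET2 exceeded TET1 in 13 of 25 libraries, so these neighbours could not be ordered.

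**Figure D1:**
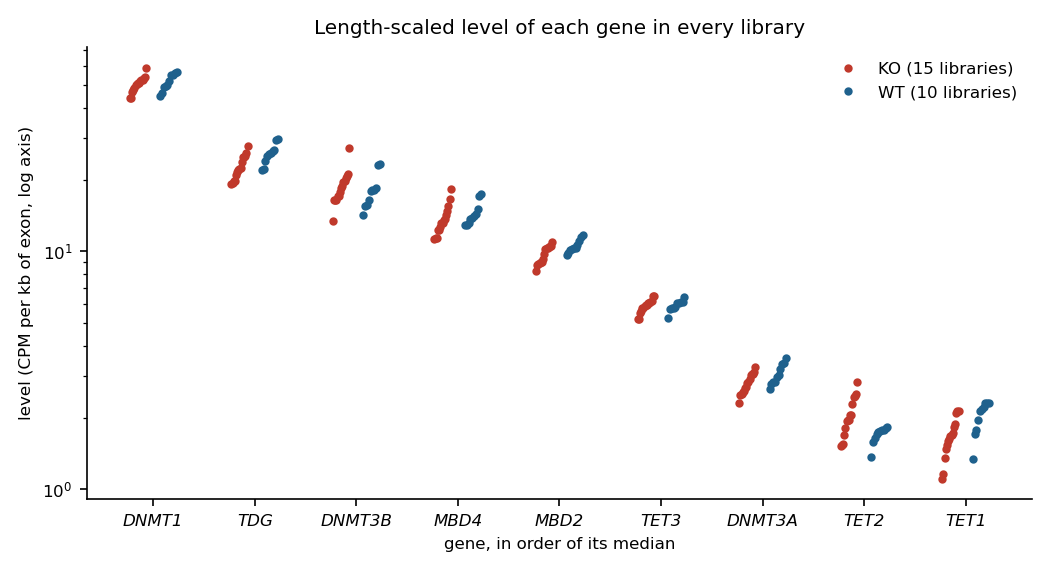
Length-scaled level (CPM per kb of exon, log axis) of each gene in the KO (left, red) and WT (right, blue) libraries, 1 point per library sorted by value. DNMT1 lies near 50.8 and TET1 and TET2 near 1.77 and 1.80, with KO and WT points overlapping for every gene.

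Within a gene, levels across libraries varied most for TET1, whose highest library had 2.09 times the CPM of its lowest. The same ratio was 2.06 for TET2 and 2.03 for DNMT3B, and it was smallest for TET3, at 1.26. Across the 25 libraries, log2 CPM of DNMT3B and MBD4 correlated at r = 0.66, and DNMT1 and MBD4 at r = -0.65. TDG and MBD2 correlated at r = 0.66, and TET1 and TET3 at r = 0.61. These points share clones, batches and treatment times, so the coefficients describe this set of libraries and carry no test.

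TET2, the targeted gene (ENSG00000168769.8, chromosome 4, 106067032 to 106200973 in hg19), was transcribed in all KO and WT libraries. Its lowest, median and highest levels were 24.9, 32.2 and 46.4 CPM in the 15 KO libraries, against 22.5, 28.9 and 29.96 CPM in the 10 WT libraries. The lowest KO value is of batch 2, while WT was of batch 1 alone. In batch 1 the lowest KO library was F4 with Aza at 72 h, at 27.7 CPM, so the ranges overlap there too. The count over all exons says nothing of the edit itself. Before treatment, TET2 was at 40.2 CPM in A12 and 32.2 in F4, against 28.9 in C4 and 28.8 in A7. Both KO values stood above both WT values. The log2 difference was 0.34 (SE 0.14, 95% interval 0.07 to 0.60), with an adjusted p of 0.591 in edgeR's quasi-likelihood test. The interval uses a normal quantile and is too narrow for so few libraries.

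The KO against WT difference of TET2 was similar in the other conditions of batch 1, at log2 0.34 with Aza at 72 h, 0.26 in DMSO at 264 h and 0.36 with Aza at 264 h. Adjusted p-values were 0.508, 0.597 and 0.421. In DMSO at 72 h only A12 remained in batch 1 for KO, at 46.4 CPM, with 29.68 and 27.01 CPM in C4 and A7, and no test was made.

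None of the other 8 genes was called between genotypes either. With 2 KO and 2 WT libraries in each, edgeR called 0 of 9 genes before treatment, where 0.0543% of 16560 genes were called at an adjusted p under 0.05. With Aza at 72 h it called 0 of 9 (0.19% of 16322 genes), in DMSO at 264 h 0 of 9 (0.208% of 16333), and with Aza at 264 h 0 of 9 (0.0488% of 16380). At an unadjusted p under 0.05 these counts were 1, 2, 0 and 1 of 9, and DESeq2 called 0 of 9 in each. The gene besides TET2 was TET1 with Aza at 72 h. TET1 was at 10.3 and 10.7 CPM in KO and 15.8 and 12.4 CPM in WT there (log2 -0.43, SE 0.16, adjusted p = 0.468), and the groups did not overlap. The median log2 difference of the 9 genes lay between -0.06 and -0.01 in the 4 comparisons. The largest difference apart from TET1 and TET2 was that of DNMT3A with Aza at 264 h, at log2 -0.24 (SE 0.13, adjusted p = 0.544).

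The KO clones differed from each other. TET2 was higher in A12 than in F4 in all 7 pairs of the same condition and batch. Its lowest, median and highest levels were 32.1, 39.0 and 46.4 CPM in the 8 A12 libraries, against 24.9, 27.7 and 32.2 CPM in the 7 F4 libraries. These ranges meet only at their edges, and the difference was log2 0.40 (SE 0.04, adjusted p = 6.18e-08). Libraries of 1 clone are not independent clones, so p-values between A12 and F4 measure the spread between libraries. Of the 7 F4 libraries, 5 lay in the range of WT and 2, at 32.2 and 31.8 CPM, above it. A7 ran from 22.5 to 29.2 CPM and C4 from 25.9 to 29.96 CPM. The F4 libraries of batch 2 held 24.9 to 25.6 CPM, while WT was of batch 1 alone. In batch 1, F4 exceeded both WT clones before treatment and with Aza at 72 h (27.7 CPM against 25.9 and 22.5). With Aza at 264 h it was also above them (31.8 CPM against 29.1 and 28.1). In DMSO at 264 h F4, at 29.7 CPM, lay between C4 (29.96) and A7 (29.2).

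DNMT3B, a de novo methyltransferase, was also higher in A12, from 82.2 to 126.4 CPM with a median of 91.3, against 62.2 to 95.7 CPM with a median of 76.2 in F4. A12 was the higher clone in 7 of 7 pairs (log2 0.29, SE 0.04, adjusted p = 1.62e-06). MBD4 ran from 39.6 to 59.0 CPM in A12 and from 36.2 to 53.1 CPM in F4, again higher in A12 in 7 of 7 pairs (log2 0.13, SE 0.03, adjusted p = 0.00416). In all, 3 of 9 genes were called, all higher in A12, where 31.6% of 18391 genes were called. The median log2 difference was 0.01 over the 9 genes, against -0.01 over all genes. With batch 1 libraries alone, MBD4 was no longer called (log2 0.11, adjusted p = 0.092).

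Genes near TET2 shared its direction between these clones. Of 53 tested genes starting within 5 Mb of TET2, 52 lay above 0 and 44 were called higher in A12, with 0 called lower. Their median log2 difference was 0.59, against 0.40 for TET2 and -0.01 over all genes. Around DNMT3B, 38 of 97 neighbours lay above 0, with 12 called higher and 16 lower (median -0.04). Around MBD4, 39 of 79 lay above 0, with 13 called higher and 19 lower (median -0.01). How far the level of the whole region sets that of TET2 was not tested.

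**Figure D2:**
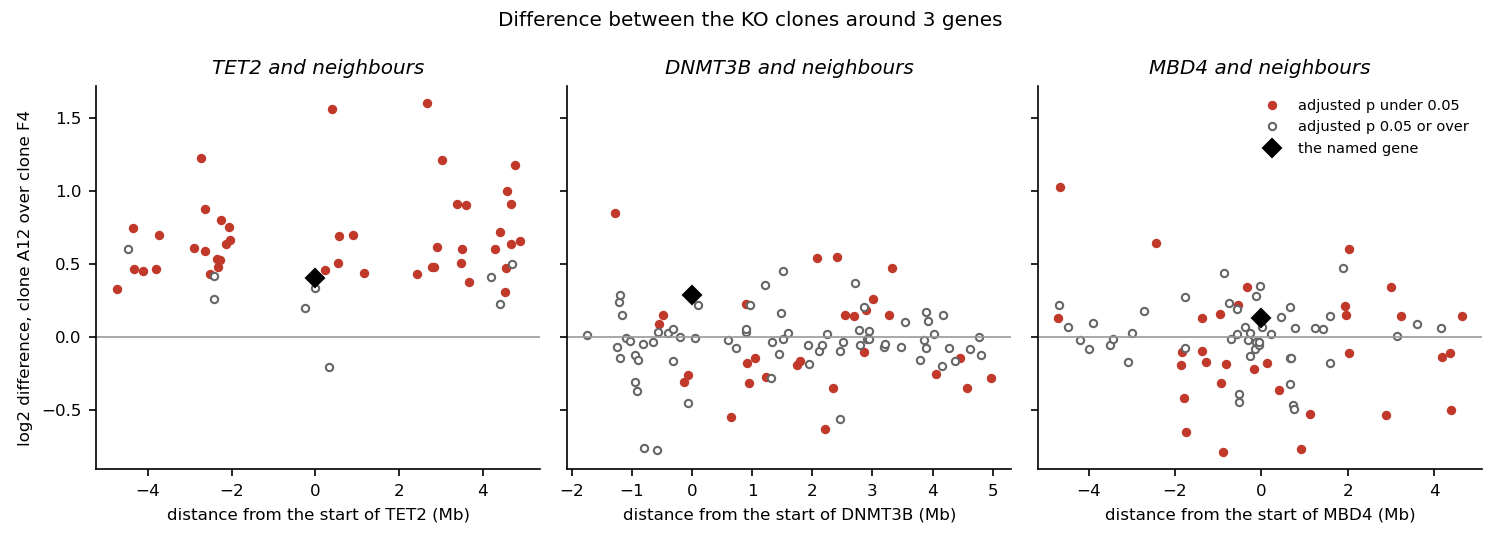
Log2 difference between KO clones A12 and F4 (vertical axis) of genes starting within 5 Mb of TET2, DNMT3B and MBD4, by distance in Mb (horizontal axis). Red points have an adjusted p under 0.05, open points do not, and the black diamond is the named gene; around TET2, 52 of 53 neighbours lie above 0.

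The WT clones were closer to each other for these genes. Between C4 and A7, 0 of 9 genes were called (edgeR, where 0.0816% of all genes were called; DESeq2 also 0 of 9), with 0 at an unadjusted p under 0.05. The largest difference was that of DNMT3A, at log2 0.12 (SE 0.07, adjusted p = 0.452). WT libraries taken before treatment did not resemble the later libraries of the same clone label. Deviations from the group mean correlated at -0.52 to -0.48 across that gap, against 0.45 to 0.52 among later WT libraries. With the labels of those libraries exchanged, or with the libraries left out, the count of called members was still 0, while 2622 and 2304 of all genes were called in place of 15.

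At 72 h after the first dose, the called genes included TET oxygenases, methyltransferases and glycosylases. In KO, TET1, TET2, TET3 and DNMT1 fell and DNMT3B and MBD4 rose, 6 of 9 genes, where 20.1% of 18391 genes were called. In WT, TET1 and TDG fell and DNMT3B and MBD4 rose, 4 of 9 genes, where 18.3% of all genes were called. The median log2 difference over the 9 genes was -0.21 in KO and -0.12 in WT, against 0.01 and 0.00 over all genes. In RNA of whole cultures, a lower level in each cell and fewer cells with the transcript cannot be told apart.

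**Figure D3:**
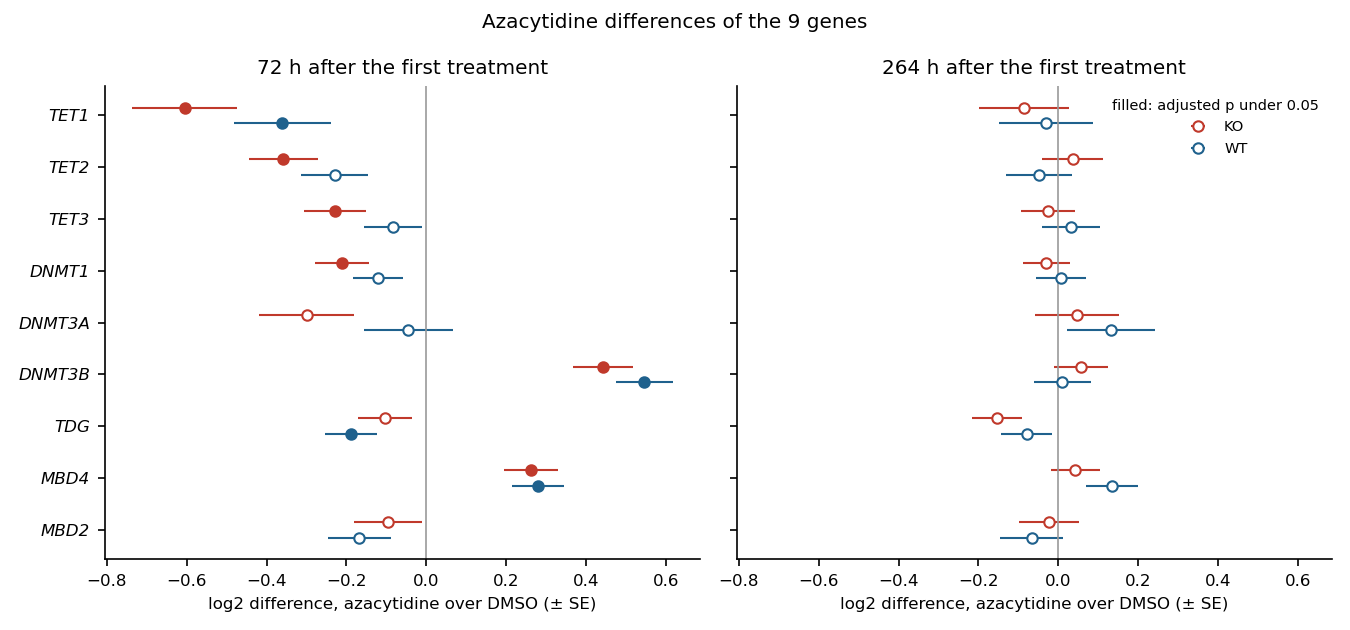
Log2 difference of Aza over DMSO with its SE (horizontal axis) for each gene at 72 h (left panel) and 264 h (right panel), KO in red above WT in blue. Filled points have an adjusted p under 0.05: 6 KO and 4 WT points at 72 h and none at 264 h.

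TET1 (ENSG00000138336.8, chromosome 10, 70320413 to 70454239), the family member best known from embryonic stem and germ cells, had the lowest median per kb of these genes. At 72 h it was at 10.3 CPM in A12 and 10.7 in F4 with Aza. In DMSO it was at 15.0 and 14.3 CPM in A12 (batches 1 and 2) and 13.7 CPM in F4 (batch 2). Every Aza value lay below every DMSO value, and the fitted difference was log2 -0.60 (SE 0.13, adjusted p = 0.00179). In WT, TET1 was at 15.8 CPM in C4 and 12.4 in A7 with Aza, against 19.8 and 16.5 in DMSO (log2 -0.36, SE 0.12, adjusted p = 0.0401). Again the groups did not overlap. The KO call was lost without A12 (log2 -0.70, adjusted p = 0.202) and with batch 1 alone (log2 -0.48, adjusted p = 0.0539). The WT call was lost when any 1 of the 4 clones was left out, with differences of -0.41 to -0.33 and adjusted p-values of 0.0723 to 0.195.

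TET2 at 72 h was at 33.8 CPM in A12 and 27.7 in F4 with Aza. In DMSO it was at 46.4 and 37.7 CPM in A12 (batches 1 and 2) and at 24.9 CPM in F4 (batch 2). A12 was lower with Aza than in either DMSO library, F4 was higher than its only DMSO library, and the groups overlap. With clone and batch fitted, TET2 fell by 0.36 in log2 (SE 0.09, adjusted p = 0.0038). Without A12 the difference was -0.09 (adjusted p = 0.834). In WT, TET2 was at 25.9 and 22.5 CPM in C4 and A7 with Aza and at 29.68 and 27.01 CPM in DMSO (log2 -0.23, SE 0.08), which was not called (adjusted p = 0.0572).

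TET3 (ENSG00000187605.11, chromosome 2, 74229840 to 74335303), the family member known for oxidising the paternal genome in the mouse zygote, had the smallest spread. At 72 h in KO it was at 59.7 CPM in A12 and 64.0 in F4 with Aza, below the 66.0 to 68.3 CPM of the 3 DMSO libraries (log2 -0.23, SE 0.08, adjusted p = 0.037). In WT it was at 65.8 and 59.8 CPM with Aza and 65.9 and 67.0 CPM in DMSO (log2 -0.08, adjusted p = 0.4926). The KO call was lost with batch 1 alone (log2 -0.13, adjusted p = 0.334) and without either KO clone (log2 -0.25, adjusted p = 0.129 without F4; log2 -0.37, adjusted p = 0.179 without A12).

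DNMT1 (ENSG00000130816.10, chromosome 19, 10244021 to 10341962), the maintenance methyltransferase that Aza traps as a protein, was at 433.9 CPM in A12 and 434.5 in F4 with Aza at 72 h. The 3 DMSO libraries of KO held 465 to 517 CPM, so the groups did not overlap (log2 -0.21, SE 0.07, adjusted p = 0.0257). In WT, DNMT1 was at 454 and 443 CPM with Aza and at 491 and 486 CPM in DMSO, also without overlap. That difference of log2 -0.12 (SE 0.06) was not called (adjusted p = 0.195). With batch 1 alone the KO difference was -0.12 (adjusted p = 0.228), and it was not called without F4 (log2 -0.17, adjusted p = 0.213) or without A12 (log2 -0.37, adjusted p = 0.0914). In the annotation used, 69 exon bases of DNMT1, or 0.704% of its exon length, are shared with S1PR2 on the same strand.

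DNMT3A (ENSG00000119772.12, chromosome 2, 25455845 to 25565459), which methylates unmethylated CpG pairs, did not pass the test in any comparison. With Aza at 72 h it was at 17.3 and 15.9 CPM in KO, against 17.9 to 22.4 CPM in the 3 DMSO libraries (log2 -0.30, SE 0.12, adjusted p = 0.0778). WT libraries were at 19.5 and 19.1 CPM with Aza and 20.3 and 19.5 CPM in DMSO (log2 -0.05, SE 0.11, adjusted p = 0.841).

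DNMT3B (ENSG00000088305.14, chromosome 20, 31350191 to 31397162), the other de novo enzyme, went the opposite way. With Aza at 72 h it was at 126.4 CPM in A12 and 95.7 in F4. The DMSO libraries held 85.1 and 91.7 CPM in A12 (batches 1 and 2) and 76.2 CPM in F4 (batch 2). All Aza values exceeded all DMSO values, and DNMT3B rose by log2 0.44 (SE 0.08, adjusted p = 0.000137). In WT it was at 108.3 CPM in C4 and 107.3 in A7 with Aza and at 71.7 and 76.0 CPM in DMSO. The WT groups lay far apart relative to their spread (log2 0.55, SE 0.07, adjusted p = 4.56e-06). DNMT3B was still called under 11 of 13 alternative analyses in KO and 12 of 13 in WT. In KO without A12 the difference was 0.25 (adjusted p = 0.389).

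**Figure D4:**
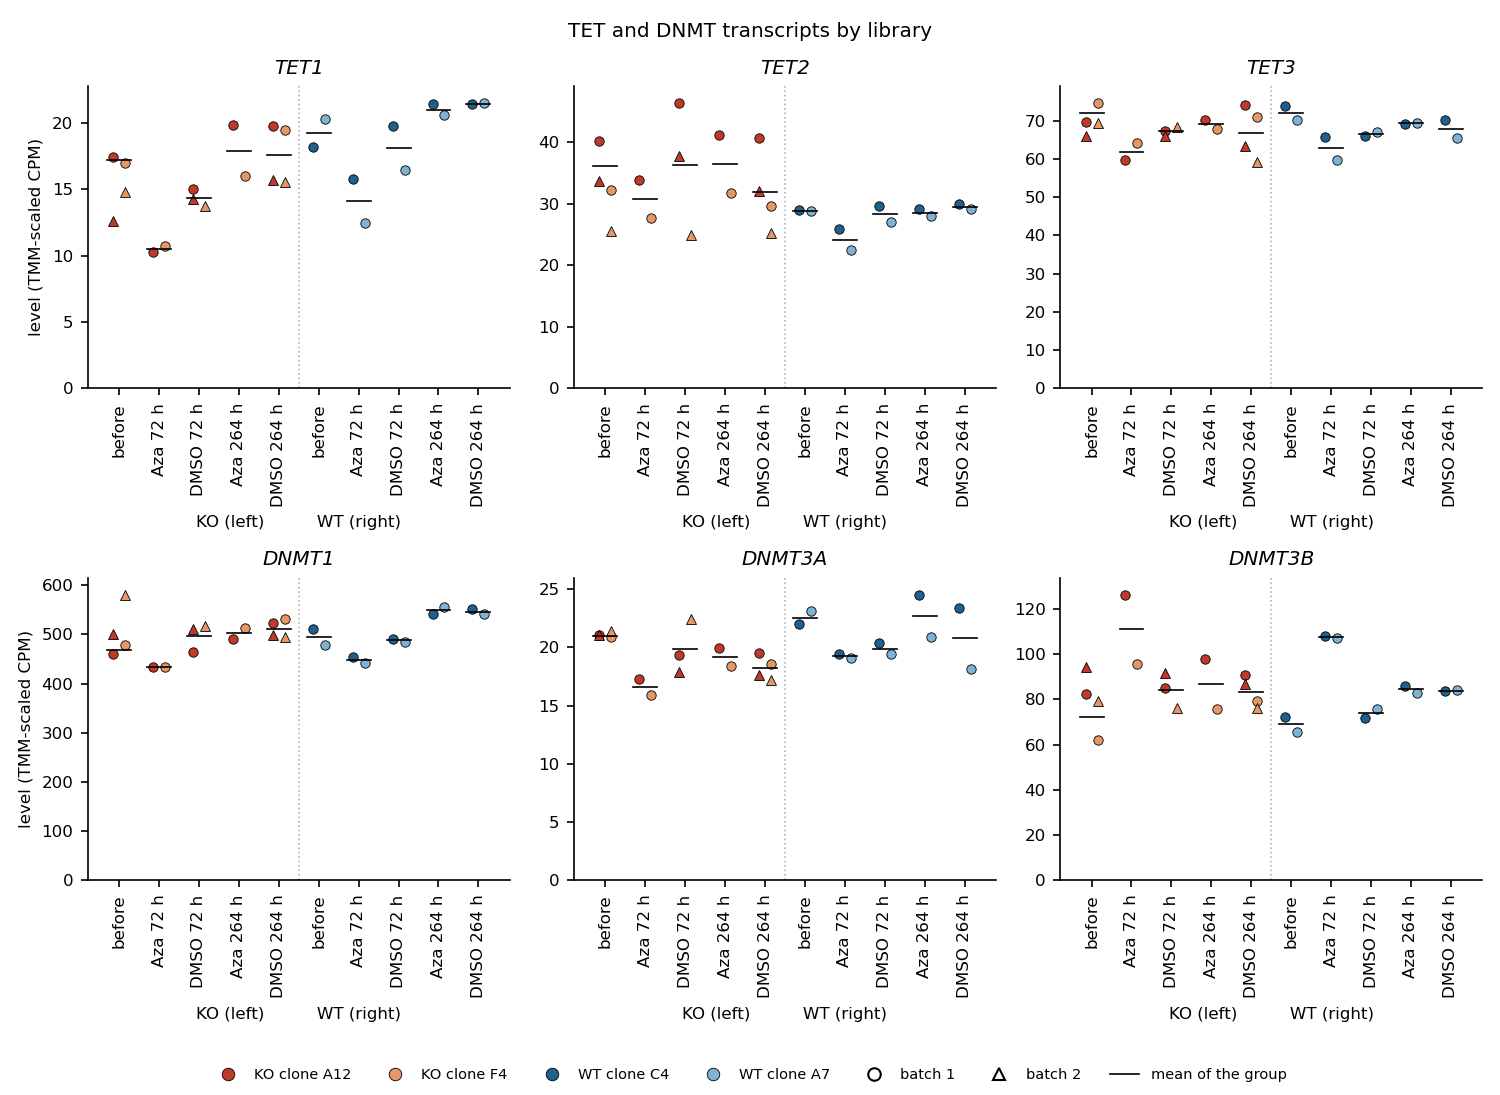
Level (CPM, vertical axis) of the TET and DNMT genes in every library by condition, KO left of the dotted line and WT right. Circles are batch 1, triangles batch 2, colours the clones, and bars the group means; the 2 batch 2 libraries with mixed labels are drawn at "before" and stay out of its mean. The mean of TET1 is lowest and that of DNMT3B highest with Aza at 72 h in both genotypes, with means not adjusted for batch.

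The glycosylases moved in different directions. MBD4 (ENSG00000129071.5, chromosome 3, 129149787 to 129158878) was at 59.0 CPM in A12 and 53.1 in F4 with Aza at 72 h, above the 49.6, 42.1 and 36.6 CPM of DMSO (log2 0.26, SE 0.07, adjusted p = 0.0072). In WT it was at 54.8 and 55.7 CPM with Aza and at 45.1 and 46.0 CPM in DMSO (log2 0.28, SE 0.06, adjusted p = 0.00315). In both genotypes the groups were apart. The gap in KO includes a batch difference, since MBD4 in KO vehicle libraries was lower in batch 2 by log2 -0.24 to -0.20. Leaving out either KO clone ended the KO call (log2 0.23 without F4 and 0.29 without A12, adjusted p = 0.125 and 0.355). Leaving out either WT clone ended the WT call (log2 0.27 each, adjusted p = 0.0857 without A7 and 0.081 without C4).

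TDG (ENSG00000139372.10, chromosome 12, 104359582 to 104382652) was at 130 and 124 CPM with Aza at 72 h in WT and at 145 and 144 CPM in DMSO. It fell by 0.19 in log2 (SE 0.06, adjusted p = 0.0426), a call lost without A7 (log2 -0.17, adjusted p = 0.323) or without C4 (log2 -0.22, adjusted p = 0.158). In KO it was at 126 and 124 CPM with Aza, within the 106 to 135 CPM of the DMSO libraries (log2 -0.10, SE 0.07, adjusted p = 0.318). The table also lists TDGP1, a processed pseudogene of TDG, at 1 to 8 counts, and how reads were divided between these near-identical copies was not tested.

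MBD2 (ENSG00000134046.7, chromosome 18, 51679079 to 51751158), a reader and not an enzyme, was not called in any comparison. With Aza at 72 h it was at 43.8 and 49.7 CPM in KO, against 41.0 to 51.6 CPM in DMSO, and at 48.4 and 46.1 CPM in WT, against 52.1 and 54.0 CPM in DMSO. The log2 differences were -0.10 in KO (SE 0.08, adjusted p = 0.47) and -0.17 in WT (SE 0.08, adjusted p = 0.158).

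**Figure D5:**
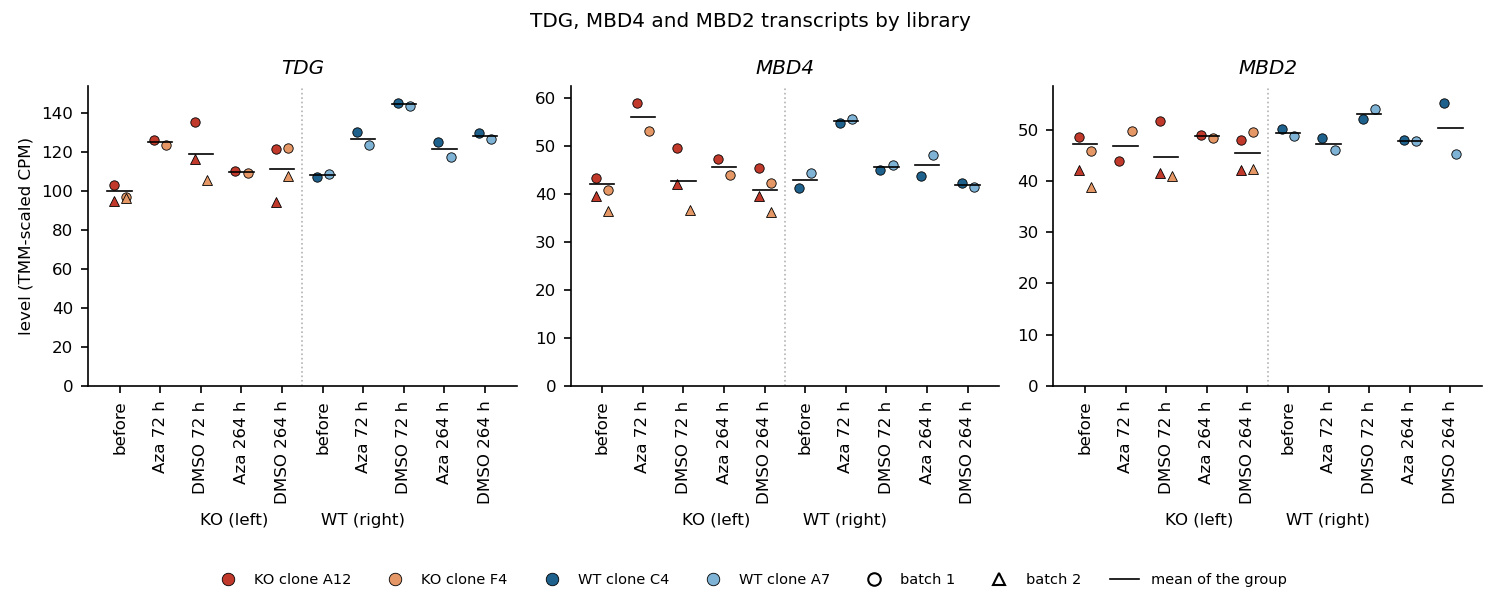
Level (CPM, vertical axis) of TDG, MBD4 and MBD2 in every library by condition, drawn as in the plot of the TET and DNMT genes. MBD4 is highest with Aza at 72 h in both genotypes, and TDG in WT is highest in DMSO at 72 h (145 and 144 CPM).

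Counting only pairs of the same clone and batch, which leaves A12, A7 and C4 at 72 h, DNMT3B and MBD4 were higher with Aza in 3 of 3 pairs and the other 7 genes lower in 3 of 3. The log2 ratios ran from 0.50 to 0.59 for DNMT3B, 0.25 to 0.28 for MBD4, -0.55 to -0.32 for TET1 and -0.46 to -0.19 for TET2. They ran from -0.13 to -0.10 for DNMT1, from -0.22 to -0.10 for TDG and from -0.24 to -0.10 for MBD2. For DNMT3A they ran from -0.16 to -0.03 and for TET3 from -0.17 to -0.002, so their smallest differences were close to none.

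The count of called genes in KO depended on the libraries used. It was 0 of 9 without A12, 3 of 9 without F4, 2 of 9 with batch 1 alone and 1 of 9 with the failed library added, in place of 6. In that library TET2 was at 13.6 CPM, TET3 at 29.03 and DNMT1 at 300.3, below every passing library, and MBD2 was at 67.8 CPM, above every passing library.

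The Aza difference itself was compared between genotypes with an interaction term. At 72 h, 0 of 9 genes were called (edgeR, 0% of all 18391 genes; 0 of 9 with DESeq2), and 0 of 9 had an unadjusted p under 0.05. Over all genes, 631 had an unadjusted p under 0.05 and DESeq2 called 9. The KO minus WT difference was -0.24 for TET1 (95% interval -0.60 to 0.11), -0.13 for TET2 (-0.36 to 0.11), -0.10 for DNMT3B (-0.31 to 0.10) and -0.02 for MBD4 (-0.20 to 0.17). At 264 h, 0 of 9 were again called (0% of all genes; 0 of 9 with DESeq2), with 0 of 9 at an unadjusted p under 0.05. There 571 genes had an unadjusted p under 0.05 and DESeq2 called 12. Genes called in KO only or WT only are thus not shown to respond differently by genotype.

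By 264 h after the first dose, none of the 9 genes was called between Aza and DMSO. In KO, 0 of 9 were called by edgeR and by DESeq2 (0.0979% of all genes), with 1 of 9 at an unadjusted p under 0.05. That gene was TDG, at 110 and 109 CPM with Aza and at 94.5 to 122 CPM in the 4 DMSO libraries (log2 -0.15, SE 0.06, adjusted p = 0.644). In WT, 0 of 9 were called by either tool (0.5% of all genes) and 0 of 9 had an unadjusted p under 0.05. DNMT3B was at 97.8 and 75.9 CPM with Aza in A12 and F4, against 76.2 to 91.0 CPM in DMSO, and at 85.8 and 83.0 CPM in WT, against 83.8 and 84.0 CPM. TET1 was at 19.9 and 16.0 CPM with Aza in KO, against 15.6 to 19.7 CPM in DMSO, and at 21.4 and 20.6 CPM in WT, against 21.4 and 21.5 CPM. In the 4 pairs of the same clone and batch at 264 h, MBD4 was higher with Aza in 4 of 4 (log2 ratios 0.05 to 0.22) and TDG lower in 4 of 4 (-0.16 to -0.05), with neither called in KO or WT.

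The Aza difference at 264 h was tested against that at 72 h. In KO, 3 of 9 genes passed (13.1% of all genes): TET1 (log2 0.52, SE 0.16, adjusted p = 0.0287), TET2 (0.39, SE 0.10, adjusted p = 0.0118) and DNMT3B (-0.39, SE 0.09, adjusted p = 0.005). In WT, 1 of 9 passed (6.83% of all genes), again DNMT3B (-0.54, SE 0.10, adjusted p = 0.00121). For MBD4 the corresponding values were -0.22 in KO (SE 0.08, adjusted p = 0.0816) and -0.14 in WT (SE 0.09, adjusted p = 0.424). Without F4 or without A12, 0 of 9 genes passed in KO.

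Vehicle cultures also differed from the cells taken before treatment, mainly in TDG. In KO, TDG was at 135 and 116 CPM in A12 (batches 1 and 2) and 106 CPM in F4 (batch 2) in DMSO at 72 h, against 103 CPM in A12 and 97.0 CPM in F4 before treatment. In batch 2, the libraries with mixed labels held 96.6 CPM of TDG in F4 and 95.2 CPM in A12, and they stay out of this contrast. TDG rose by log2 0.43 in the fit (SE 0.07, adjusted p = 0.000263). In WT it was at 145 and 144 CPM in DMSO at 72 h and at 107 and 109 CPM before treatment (log2 0.42, SE 0.06, adjusted p = 0.00015). No DMSO value lay below a pre-treatment value of its genotype. TDG was the 1 of 9 genes called in KO (11.4% of all genes) and the 1 of 9 in WT (13.6%). Without A12 the KO difference was 0.32 (adjusted p = 0.203).

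At 264 h the KO libraries in DMSO held 94.5 to 122 CPM of TDG. Within batch 2, A12 was at 94.5 CPM, against 95.2 CPM in its library with mixed labels, so it showed no rise. F4 was at 108 CPM there, against 96.6 CPM. Against the same 103 and 97.0 CPM before treatment in batch 1, the fitted rise was log2 0.29 (SE 0.06, adjusted p = 0.0107). This was again 1 of 9 genes in KO (3.93% of all genes), and it was lost without F4 (log2 0.20, adjusted p = 0.619) or without A12 (log2 0.33, adjusted p = 0.148). In WT, TDG was at 130 and 127 CPM in DMSO at 264 h, above 107 and 109 CPM before treatment (log2 0.25, SE 0.06, adjusted p = 0.0261). DNMT3B in WT was at 83.8 and 84.0 CPM in DMSO at 264 h, against 72.4 and 65.5 CPM before treatment (log2 0.28, SE 0.07, adjusted p = 0.0212). These made 2 of 9 genes in WT (4.92% of all genes). Leaving out A7 ended both calls (DNMT3B log2 0.21, adjusted p = 0.293; TDG log2 0.27, adjusted p = 0.114). Without C4 the TDG call was lost (adjusted p = 0.123), and without A12 that of DNMT3B (adjusted p = 0.0614). The DMSO libraries at 72 h serve both the Aza contrasts and these time contrasts, so for TDG in WT the rise in DMSO and the fall with Aza share values.

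Another 39 genes of cytosine methylation, its readers, repair and cofactor supply were listed, of which 38 matched the table and 34 passed the filter. At 72 h with Aza, 6 of 34 rose and 0 fell in KO, where 20.1% of all genes were called, and 3 rose and 2 fell in WT, where 18.3% were. Neither share of called genes exceeded that over all genes. Their median log2 difference was 0.00 in both genotypes, against 0.01 in KO and 0.00 in WT over all genes.

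CXXC5, a CXXC-domain protein that binds unmethylated CpG, was at 112 ± 1.07 CPM with Aza in KO (SD, n = 2), against 71.4 ± 4.12 CPM in DMSO (n = 3). It rose by log2 0.72 (SE 0.09, adjusted p = 2.62e-06). In WT it was at 111 ± 0.519 CPM with Aza and 69.4 ± 11.5 CPM in DMSO (n = 2 each; log2 0.68, SE 0.09, adjusted p = 2.76e-06). UNG, the uracil-DNA glycosylase, rose by log2 0.27 in KO (SE 0.07, adjusted p = 0.00575) and by 0.24 in WT (SE 0.06, adjusted p = 0.0105). In KO its levels were close, at 101 ± 6.70 CPM with Aza (n = 2) and 96.2 ± 8.49 CPM in DMSO (n = 3). These means are not adjusted for batch, so the KO rise rests on the fitted clone and batch terms. In WT it was at 99.3 ± 6.92 CPM with Aza and 84.0 ± 1.76 CPM in DMSO.

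The other risers named by size in KO were IDH2 and ZBTB33. IDH2, a mitochondrial isocitrate dehydrogenase that makes the TET cofactor 2-oxoglutarate, rose by log2 0.42 (SE 0.10, adjusted p = 0.00289). Its unadjusted levels overlap in spread, at 53.2 ± 5.38 CPM with Aza and 46.2 ± 8.20 CPM in DMSO. ZBTB33, a zinc-finger reader of methylated DNA, rose by log2 0.39 (SE 0.08, adjusted p = 0.000792), from 65.9 ± 12.9 CPM in DMSO to 97.7 ± 1.95 CPM. Neither was called in WT (IDH2 log2 0.13, adjusted p = 0.361; ZBTB33 log2 0.14, adjusted p = 0.229). The interaction with genotype called 0 of the 34 genes at 72 h. In WT, MBD1, a methyl-CpG reader, rose to 65.2 ± 2.54 CPM with Aza, against 53.4 ± 2.06 CPM in DMSO (log2 0.29, SE 0.06, adjusted p = 0.00184); it was also called in KO (log2 0.26, SE 0.07, adjusted p = 0.00649). The RNA methyltransferase TRDMT1, a DNMT relative, fell by 0.26 in log2 in WT (SE 0.09, adjusted p = 0.0429), and MTR, the methionine synthase, fell by 0.21 (SE 0.06, adjusted p = 0.0217). At 264 h, 0 of 34 were called in KO (0.0979% of all genes) or in WT (0.5%) by edgeR or DESeq2, with 1 of 34 at an unadjusted p under 0.05 in each.

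Over the 25 libraries, the genes whose log2 CPM most resembled that of each called gene were found by Pearson's r, given without a test because libraries share clones and treatments. Those nearest to TET2 were FSTL5 (r = 0.94), ABHD18 (0.94) and WWC2 (0.93), all on chromosome 4, as is TET2. Those nearest to DNMT3B were COL1A1 (0.88), ACIN1 (0.87) and BRD2 (0.87), and those near MBD4 included TOPORS (0.93) and LEMD3 (0.93). TET1 was most like NUP155 (0.92), EIF2AK4 (0.91) and AGO2 (0.91), and TDG like HSPA9 (0.94), KPNB1 (0.94) and LTV1 (0.94). DNMT1 was most like DIDO1 (0.89), PI4KA (0.89) and CLEC16A (0.88), and TET3 like NFAT5 (0.83), ASH1L (0.82) and MACF1 (0.82).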

How the data were processed

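RNA libraries of TF-1 clones were made with a stranded mRNA kit, per the labels' protocols. The deposited values are raw counts per gene, made by the authors with featureCounts 1.6.2 in paired-end mode over exons of GENCODE release 19, per the file headers, whose command sets no strand option. Without strand, reads of a gene and of an overlapping antisense gene cannot be told apart. The submitters' processing notes also name STAR 2.6.1d, cutadapt, FastQC and DESeq2, and the hg19 (GRCh37) build. The labels name clones, not separate cultures. Where a clone term is fitted, p-values measure the spread between libraries that is left after it. Those of KO against WT, fitted without a clone term, measure the spread between clones and libraries.

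CPM (TMM library sizes) and log2 CPM (prior count 2) were computed in edgeR 4.0.16 under R 4.3.3; a floor of 3 counts is 0.0747 to 0.120 CPM, for counting error only. A shared model of 25 libraries, with 11 groups, a clone term in each genotype and a batch term, was fitted with edgeR's robust quasi-likelihood test after filterByExpr (18391 genes), and gave 14 comparisons. Another 4 fits compared KO with WT within a condition of batch 1. Adjusted p-values are Benjamini-Hochberg values over all genes tested, with calls under 0.05, and SE is the log2 difference over the square root of F. Intervals are 1.96 SE either way, a normal quantile, so with few libraries they are narrower than the F test implies. DESeq2 1.42.0 and other settings were run as alternatives. The code was tested on simulated counts.

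Clones pair libraries, since a clone name marks the same cells: same-clone deviations correlated over 3000 variable genes at 0.55 to 0.58 in KO. Libraries of the same group differed by more than counting noise in each of 18 pairs, with chi-square no lower than 11.0 times its degrees of freedom. The 9 genes and the gene lists were chosen with earlier results of these data known. All 9 genes are named; of the other methylation genes, the text names the 4 largest rises and falls among called genes in each Aza contrast, and for each gene called in an Aza or clone comparison the 3 genes most like it. Gene UHRF1 of that list matched no name and was not analysed here. A few genes that these rules would name are not reported here.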

Additional observations from a re-analysis of the deposited data

Results flagged for a closer look

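The difference between Aza and DMSO changed with time for a few of the 9 genes, by a test of the change itself. In KO the Aza difference at 264 h minus that at 72 h was 0.52 for TET1, 0.39 for TET2 and -0.39 for DNMT3B on the log2 scale, and in WT it was -0.54 for DNMT3B. No library of the 4 in KO with DMSO at 264 h stood apart from the others by Dixon's criterion for any of the 9 genes. Those libraries are both KO clones in both batches, so the criterion had little power, and nothing is drawn from it.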

How the results depend on the processing

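Over the 9 genes and 18 comparisons, 22 differences were called, and alternatives gave 265 further values for them. Of these, 190 kept direction and call, 72 kept direction without the call, and 3 reversed, all with the failed library added at Aza 72 h in KO: TET2 0.038, TET3 0.18 and DNMT1 0.051 (log2). The cause was not tested. DESeq2 and RLE normalization kept all 22 calls.

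Counts of called genes moved as follows, first for Aza against DMSO at 72 h. In KO (6 of 9) the count was 1 with no replicate block, 2 with batch 1 only, 1 with the failed library and 3 with the comparison's own libraries only, and 0 to 7 leaving out 1 clone. In WT (4 of 9) it was 2 without the filter on low counts, 2 with no replicate block, 0 with the failed library, and 1 to 3 leaving out 1 clone. For the change of the Aza difference between times, KO (3 of 9) had 0 with no replicate block, 0 with the failed library and 0 to 3 leaving out 1 clone, and WT (1 of 9) had 0 with no replicate block and 0 with the failed library. For DMSO against before treatment at 72 h, KO (1 of 9) had 0 with the failed library and 0 to 1 leaving out 1 clone, and WT (1 of 9) had 0 with the failed library. At 264 h, KO (1 of 9) had 0 with no replicate block, 0 with the failed library, 2 with batch 1 only, 2 with WT pre-treatment labels exchanged, 2 with those libraries left out, and 0 to 2 leaving out 1 clone. WT (2 of 9) had 0 with no replicate block, 0 with the failed library and 0 to 2 leaving out 1 clone. For KO against WT with Aza at 264 h (0 of 9), leaving out 1 clone gave 0 to 1. Leaving out a clone leaves its genotype with 1 library in most groups, which is then assumed to vary like the others. Depth did not limit detection of any of the 9 genes.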
